A study of Bos taurus with 12 samples.

Results

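The 869 CpGs with unequal strand methylation were selected on the measured levels of their strands in reduced representation bisulfite sequencing (RRBS) of cattle skin fibroblasts. On the 29 autosomes, each cytosine of the plus strand was paired with the cytosine 1 bp further on, on the minus strand, and 213501 CpGs had both strands in the deposited table. Of these, 187335 had a mean coverage of at least 10 reads on both strands, where coverage is the number of reads behind a ratio. A CpG was kept when the means of its strands over all 12 cultures differed by at least 0.40 in methylation ratio, which is 40 percentage points. The size and direction of the difference are therefore descriptions of how the CpGs were chosen, and no test is attached to them.

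The cultures were primary dermal fibroblasts of 6 Holstein heifers, each sampled at 5 months (6 young cultures) and again at 16 months (6 old cultures), so that young and old cultures of the same number came from 1 animal. The deposited columns carry the number of the animal and a letter, and which letter is the young culture was read from the sign of the deposited age difference, so that the direction of each age change below rests on that reading. All cultures were at passage 6 and had received no stimulus. DNA was cut with the restriction enzymes MspI and TaqI, treated with bisulfite and sequenced, and the methylation ratio, C/(C + T), was deposited by culture, position and strand, here given in percent. The cell type could not be checked against marker genes, because RRBS measures no RNA. Each culture carried between 19007741 and 31643295 read counts over the 838705 positions of the table, with a mean coverage between 22.7 and 37.7 reads. Positions are counted from 1 on bosTau8, and a CpG is named by its plus strand cytosine.

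A CpG reads as CpG on both strands, so that each site holds a pair of cytosines that can be methylated. After replication the new strand is bare, and the maintenance methyltransferase DNMT1, guided by UHRF1, copies the mark from the old strand, which keeps most CpGs alike on both strands. A CpG with the mark on 1 strand only is called hemimethylated. Bisulfite turns unmethylated cytosine into uracil, which is read as T, and the strands are read separately.

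Unequal strands were rare. The median absolute strand difference over the 187335 CpGs was 0.917 points, 96.0% differed by less than 10 points, and the 99th percentile was 22.9 points. The 869 CpGs made up 0.464% of those examined and 2.30% of the 37843 CpGs with an intermediate level, that is, a mean ratio of 0.2 to 0.8 over both strands. The limit of 40 points itself places every such CpG in this intermediate class. The plus strand was more methylated at 427 (49.1%) and the minus strand at 442 (50.9%).

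The strand with more methylation had a median level of 83.2% (40.1% to 98.9%) and the other a median of 17.1% (0% to 57.4%). The median difference was 56.5 points and the largest 97.1 points. It was at least 50 points at 562 CpGs, at least 70 points at 192 and at least 90 points at 10. A fully methylated strand against a bare strand was uncommon. Both a higher strand of at least 90% and a lower strand of at most 10% were found at 21 CpGs (2.42%), while 325 had only the first or both and 318 only the second or both. The remaining 247 CpGs (28.4%) had neither.

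**Figure D1:**
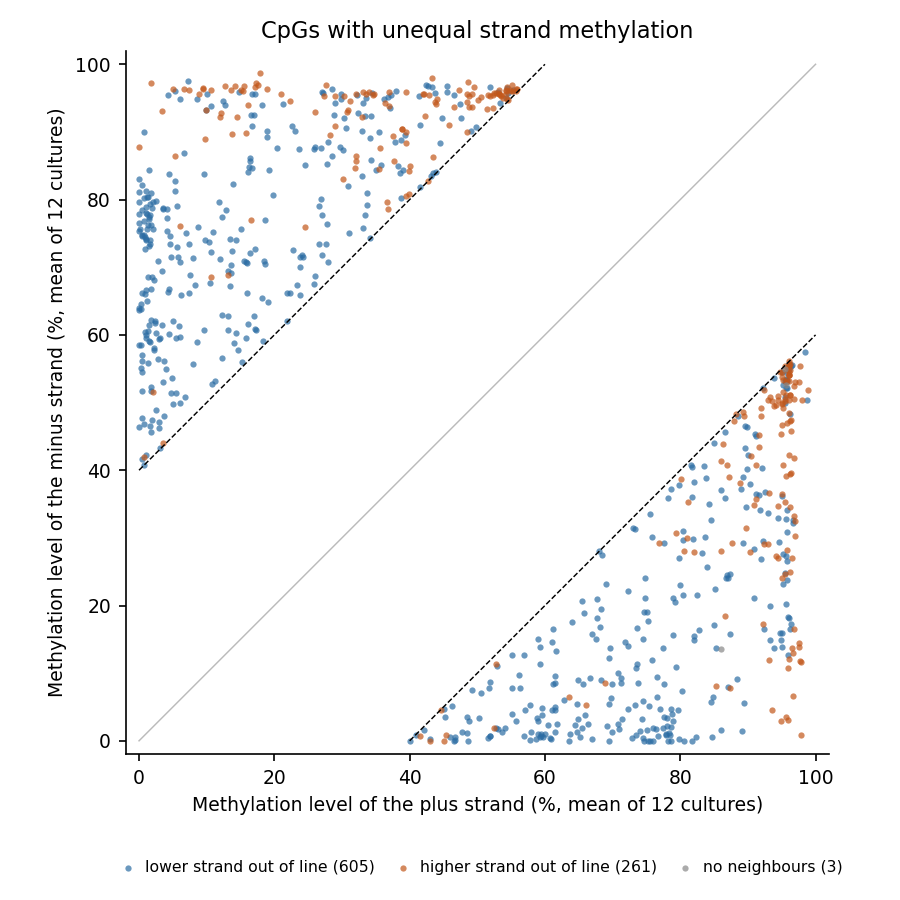
Mean methylation level of the plus strand (x axis, %) against the minus strand (y axis, %) over 12 cultures, with 1 point for each of the 869 CpGs. The dashed lines mark a difference of 40 points, and colours show which strand departed from the neighbouring positions. Points gather where 1 strand is near 0% and where 1 strand is at 95% or above.

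The 3 CpGs just inside the limit lay at 56805157 on chromosome 8, 45029376 on chromosome 9 and 35833554 on chromosome 27, each with a difference of 40 points. The 3 nearest outside it, at 18485792 and 82832095 on chromosome 3 and at 27319481 on chromosome 6, differed by 39.9 points. The limit thus cut through a continuous range of differences.

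The largest difference was at 21433997 on chromosome 3. Its plus strand was at 96% to 100% in the young cultures (median 100%) and at 93% to 100% in the old ones (median 97.5%). Its minus strand was at 0% to 3% in the young cultures (median 0%) and at 0% to 5% in the old ones (median 0%). The strands did not overlap in any culture, with 15 to 53 reads on each. The opposite arrangement was found 734 bp to the right, at 21434731, where the minus strand was at 92% to 100% in young and 94% to 100% in old cultures. There the plus strand stayed between 0% and 6% in all 12 cultures. The tested positions within 50 bp averaged 0.833% at the first CpG and 1.09% at the second, so that the methylated strand was the one that stood apart.

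Chromosome 2 held a like arrangement at 54621921 and 54622531, which are 610 bp apart. At the first, the plus strand averaged 95.9% and the minus strand 3.08%. At the second, the plus strand averaged 3.33% and the minus strand 93.1%. The range over the 6 young cultures was 92% to 99% for the plus strand of the first and 92% to 96% for the minus strand of the second. In the old cultures these ranges were 95% to 97% and 82% to 97%. The neighbours were again bare, at 3.07% and 3.67%.

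Deeply covered CpGs were among the largest differences too. At 48992548 on chromosome 13, the minus strand was at 94% to 96% in all 12 cultures on 857 to 1661 reads. The plus strand was at 2% to 7% on 200 to 445 reads. At 19408387 on chromosome 29, the minus strand was at 95% to 97% on 418 to 762 reads and the plus strand at 0% to 9% on 41 to 80 reads. The positions within 50 bp averaged 53.2% and 53.8%, so that both strands departed from them, the lower one by more.

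Other CpGs had a bare strand within a methylated stretch. At 99114445 on chromosome 11, the plus strand averaged 89.1%, the minus strand 1.5%, and the 20 tested positions within 50 bp averaged 78.8%. At 82857747 on chromosome 3, the minus strand averaged 89.9%, the plus strand 0.750%, and the 16 positions nearby averaged 78.9%. At 82799970 on the same chromosome, the plus strand averaged 86.1% and the minus strand 1.58%, beside neighbours at 71.5%. In all these cases the strand near 0% was the one that stood apart from its neighbours.

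To see which strand departed from its surroundings, both were compared with the mean of the other tested positions within 50 bp, leaving out further CpGs with unequal strands. Such neighbours existed for 866 CpGs. The lower strand was farther from them at 605 CpGs (69.9%) and the higher strand at 261 (30.1%). In the first class the neighbours had a median level of 71.5%, the higher strand 75.8% and the lower strand 12.2%. The lower strand was at most 5% at 217 of these CpGs (35.9%). In the second class the neighbours had a median of 49.4%, the lower strand 38.7% and the higher strand 95.1%. The higher strand reached at least 95% at 136 of these CpGs (52.1%).

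In the medians by distance, the departure was at the CpG itself. Where the plus strand was higher and the minus strand out of line, the minus strand had a median of 12.7% at the CpG, 69.6% at minus strand positions 1 to 10 bp to the left and 74.7% at those 1 to 10 bp to the right. The mirror case gave 11.9% on the plus strand at the CpG, 80.8% on the left and 71.2% on the right. On the left of the first class the plus strand had a median of 74.7%, close to that of the minus strand. Where the higher strand was out of line, the strands were less alike in some neighbouring bins, in either direction. With the plus strand higher, the bin centred 35 bp to the right had 49.2% on the plus strand (19 positions) and 13.3% on the minus strand (15 positions). The bin at 15 bp had 18.5% (10 positions) and 49.0% (18 positions). With the minus strand higher, the bin at 15 bp to the right had 16.2% and 17.8%. The bin centred 5 bp to the left had 47.7% on the plus strand (9 positions) and 14.5% on the minus strand (7 positions). Many bins hold few positions, and the strands were not matched position by position.

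**Figure D2:**
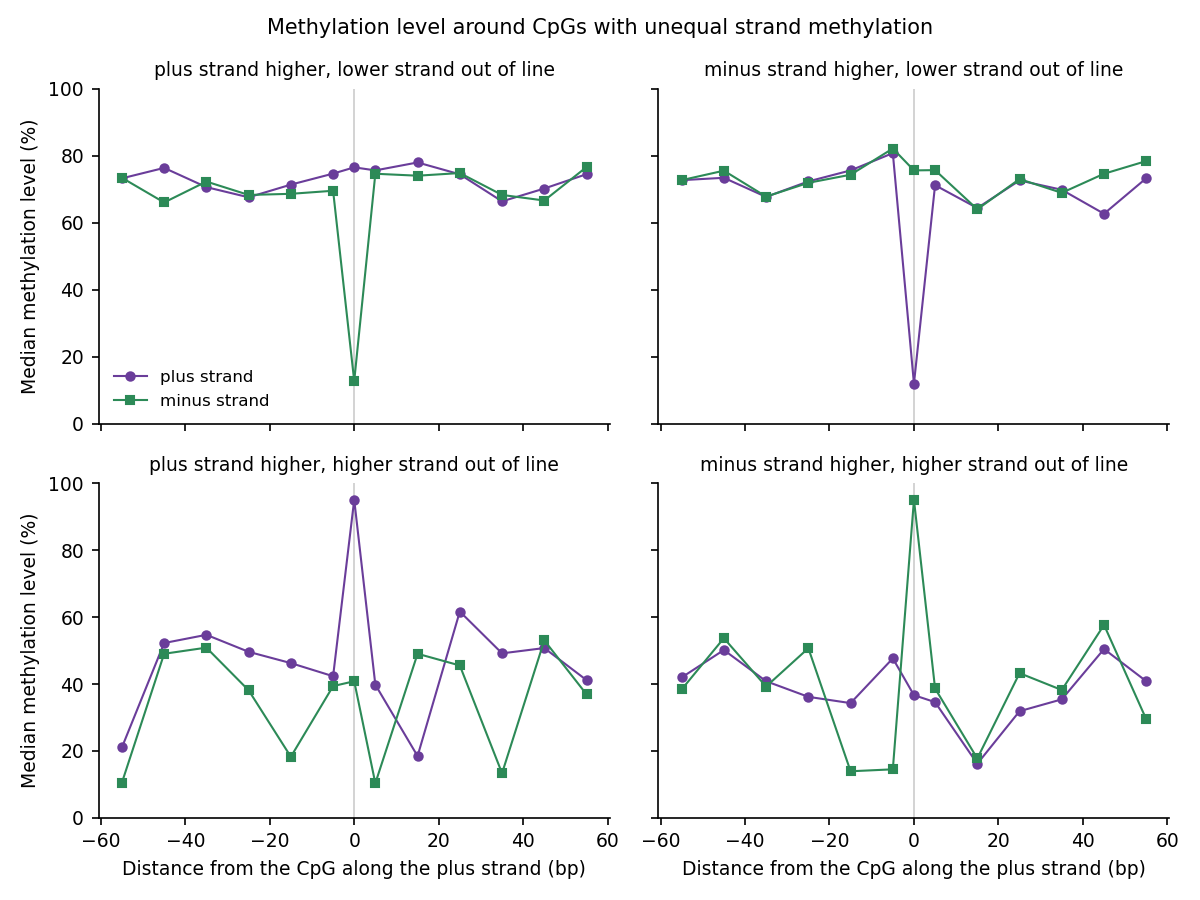
Median methylation level (y axis, %) of plus strand (circles) and minus strand (squares) positions by distance from the CpG (x axis, bp, in bins of 10 bp), in 4 classes by the higher strand and by the strand that departed from its neighbours. In the upper panels 1 strand drops to 12.7% or 11.9% at the CpG, and in the lower panels 1 strand rises to 95.1%.

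The place of a CpG within its stretch of tested positions differed by direction. Of the 427 CpGs with the plus strand higher, 190 (44.5%) had tested positions within 50 bp on the left only, and 12 (2.81%) on the right only. Of the 442 with the minus strand higher, 195 (44.1%) had them on the right only, and 21 (4.75%) on the left only. Read along the higher strand, 385 of the 869 CpGs (44.3%) were thus the last tested position at the 3′ side, and 33 (3.80%) were the first at the 5′ side. Over all CpGs examined, left only and right only were equally frequent, at 6.02% and 6.03%, and at 9.82% and 9.93% among intermediate CpGs.

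This edge position was more frequent where the higher strand was out of line, with 151 of 261 CpGs (57.9%), than where the lower strand was, with 233 of 605 (38.5%). The opposite edge held 7 and 26 CpGs of these classes. With neighbours sought within 100 bp, an alternative added after the data had been seen, 217 CpGs (25%) were at the 3′ edge and 16 (1.84%) at the other. The share of CpGs at the edge therefore depended on the distance, while the side did not.

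Some CpGs of opposite direction came in pairs with nearly the same coverage. A plus-higher CpG had a minus-higher CpG within 2 kb to its right in 134 cases and to its left in 66. When the mean coverage had to be within 10% on both strands, 27 plus-higher CpGs had such a partner on the right and 2 on the left. The distance in the 27 pairs was 232 to 1617 bp, with a median of 715 bp. In 21 of the 27 pairs the coverage of both strands agreed within 10% in each of the 12 cultures.

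At 58238867 and 58239776 on chromosome 18, 909 bp apart, the counts of reads differed by at most 2 in any culture and strand, on 84 to 270 reads. The plus strand averaged 96.8% and the minus strand 16.6% at the first CpG, and the minus strand averaged 96.8% and the plus strand 15.6% at the second. At 66268445 and 66269228 on chromosome 2, 783 bp apart, the read counts differed by at most 5 on 287 to 943 reads. At 41470337 and 41470977 on chromosome 4, 640 bp apart, they differed by up to 267 on 2411 to 5479 reads. Whether the CpGs of a pair share reads was not tested, and both are counted in the numbers given here.

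The lower strand of a pair was not always near 0%. On chromosome 4 the higher strands were at 96.1% and 95.7%, and the lower strands at 53.2% and 41.9%. On chromosome 8, at 56805133 and 56805848, the higher strands were at 79.3% and 95.7% and the lower strands at 10.9% and 49.2%. Each strand of this second pair had at least 109 reads in every culture.

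Coverage of the 869 CpGs was high and uneven between the strands. The mean over both strands had a median of 74.5 reads, against 19.5 reads for all CpGs examined and 39.2 reads for intermediate CpGs. It was at least 100 reads at 364 CpGs (41.9%), against 6.49% and 20.9%. The strands differed at least 2-fold in coverage at 534 (61.4%), against 11.1% and 36.1%. The higher strand was the deeper one at 488 CpGs (56.2%). An even coverage in all 12 cultures on either strand, which marked 33.3% of all CpGs examined, was found at 3 of the 869 (0.345%). The part of coverage in the strand difference was not tested.

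The CpGs lay on all 29 autosomes, and many had another one nearby. When CpGs at most 20 kb apart were joined, 742 (85.4%) had at least 1 other such CpG in their cluster, and 127 stood alone. There were 256 clusters, and 18 of them, on 14 chromosomes, held at least 10 CpGs and together 337 (38.8%). The largest clusters, with 34 CpGs each, spanned 82715975 to 82897251 on chromosome 3 and 56714549 to 56849025 on chromosome 8. All 18 large clusters contained both directions, with the plus strand higher at 40% to 80% of their members. Within these clusters 1.72% to 5.16% of the CpGs examined had unequal strands.

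Clusters differed in which strand was out of line. In the chromosome 8 cluster the lower strand departed from its neighbours at 27 of 34 CpGs, and in the chromosome 3 cluster at 28 of 34. In the cluster from 58238375 to 58239777 on chromosome 18, all 9 CpGs had the higher strand out of line, beside neighbours with a median of 10.2%. Chromosome 8 held 109 of the CpGs, 1.14% of those examined there, and chromosome 24 held 3, or 0.0850%.

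Gene annotation was taken from the authors' list of positions that differed with age, so that it covered few of the CpGs. Of the 869, 11 had a strand in that list, 0 of these with a gene and 1 in a CpG island. Within 2 kb, 52 CpGs (5.98%) had a listed position annotated to a gene. For 47 this was an intron and for 5 a promoter, in 26 gene entries. The class belongs to the listed position, not to the CpG itself. How many of all CpGs examined are listed, or lie as near to a listed gene position, was not counted. Whether the numbers here and by gene below exceed those of all CpGs examined is thus not known.

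Introns of ADAMTS3, a protease that trims procollagen, lay near 7 CpGs, those of SYNPR, a synaptic vesicle protein, near 4 and those of ZNF395, a zinc finger protein, near 4. ENPP3, an ectonucleotidase, and FRMD5, a FERM domain protein, had 3 each. Promoter positions of TSN, which encodes the nucleic acid binding protein translin, were 197 and 242 bp from CpGs at 73826547 and 73826592 on chromosome 2. A promoter position of HOOK1, a microtubule-linked adaptor, was 358 bp from the CpG at 86721557 on chromosome 3. On chromosome 6, CpGs at 92538909 and 92539498 were 1067 and 478 bp from a position listed under the promoters of the microRNA genes MIR2887-1 and MIR2904-1 and their copies.

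The difference recurred in nearly every culture. All 12 cultures had the direction of the mean at 861 CpGs (99.1%), and 11 did at the other 8, where the remaining culture was reversed at 5 and without a difference at 3. Agreement is in part set by the choice of a large mean. Over all CpGs examined, 1.66% had 1 direction in all 12 cultures. The difference was at least 40 points in every single culture at 423 CpGs (48.7%) and at least 20 points at 780 (89.8%). By culture, between 707 and 782 CpGs passed 40 points, and the median difference was between 56 and 60 points.

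The CpGs were chosen by the mean over both ages, so that agreement between the ages is in part built in. The mean over the 6 young cultures passed 40 points at 816 CpGs, that over the 6 old cultures at 839, and both did at 786 (90.4%), while the others passed at 1 age only. The median difference was 56.3 points in young and 56.7 points in old cultures. The median absolute change of the mean between the ages was 2.83 points and the largest 28 points. The median SD of single cultures was 7.74 points in young and 9.09 points in old cultures. The difference was larger in the old cultures at 504 CpGs and in the young at 350.

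**Figure D3:**
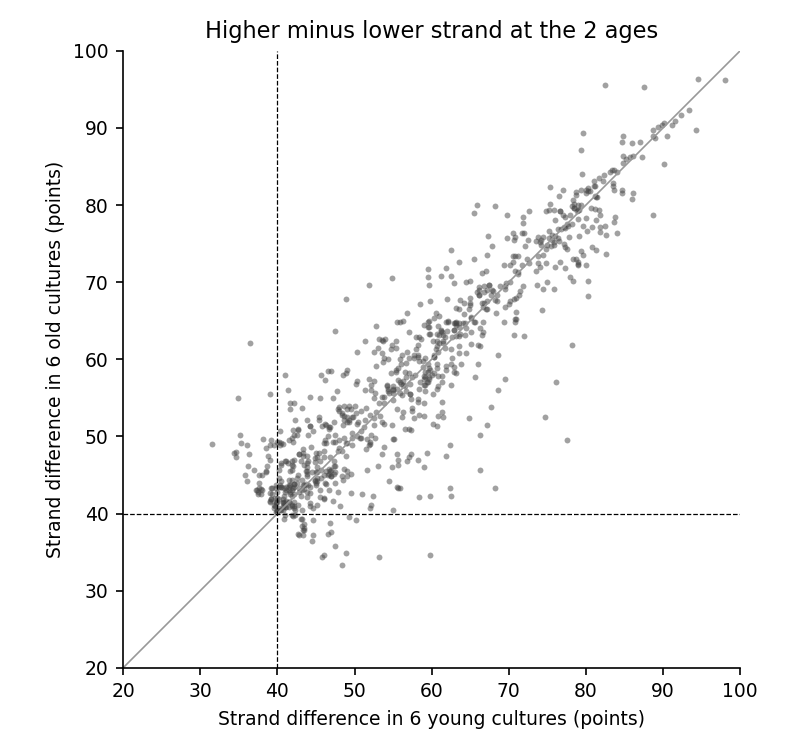
Strand difference (higher minus lower strand, points) as the mean of 6 young cultures (x axis) and of 6 old cultures (y axis) for the 869 CpGs. The solid line marks equality and the dashed lines 40 points. The points follow the line of equality, with 786 CpGs past 40 points at both ages.

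Whether the strand difference changed with age was tested over all 187335 CpGs with limma's moderated test on the plus minus minus difference of each culture, with the animal as a block. With an unadjusted P below 0.05, 37 of the 869 CpGs (4.26%) were called, against 2.74% of all CpGs and 6.07% of the intermediate CpGs in the same fit. The share thus lay between that of all CpGs and that of CpGs of like level. The difference was larger in young cultures at 16 and in old cultures at 21 of the 37. After Benjamini-Hochberg adjustment, 0 of the 869 and 0 of all CpGs (0%) passed, and the smallest adjusted P among the 869 was 0.773 by limma. Fitted on intermediate CpGs only, 17 (1.96%) had an unadjusted P below 0.05, against 5.16% of those CpGs. Without animal 5 the fit on all CpGs called 56 of the 869 (6.44%), against 2.64% of all.

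The smallest age P belonged to the CpG at 65553642 on chromosome 15. Its plus strand was at 50% to 62% in the young cultures (median 54.5%) and at 62% to 78% in the old cultures (median 74.0%). Its minus strand was at 0% to 5% in all 12 cultures. The strand difference was 54.8 ± 3.97 points when young and 70.5 ± 8.26 points when old (SD, n = 6 each, exact two-sided sign-flip permutation P = 0.0312, the smallest this test allows). It was larger in the old culture of every animal, on 17 to 35 reads of the plus strand, and its adjusted limma P was 0.773.

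The next smallest age P-values were at 41490353 on chromosome 4 and 39277754 on chromosome 28. These CpGs and the one on chromosome 15 were picked by their age P, so that their exact P-values are no further support. At 41490353 on chromosome 4 both strands contributed. The minus strand averaged 92.7% in young and 96.8% in old cultures, on 12 to 24 reads. The plus strand averaged 52.7% and 47.5%. The strand difference was 40 ± 3.63 points when young and 49.3 ± 3.78 points when old (SD, n = 6 each, exact sign-flip P = 0.0312). At 39277754 on chromosome 28 it was 44.7 ± 4.72 points when young and 37.2 ± 4.54 points when old (SD, n = 6 each, exact sign-flip P = 0.0312). Neither passed adjustment by limma, with an adjusted P of 0.773 for both. The last of the 4 CpGs with the smallest age P was at 46591454 on chromosome 29. Its strand difference was 58.5 ± 29.2 points when young and 67.2 ± 30.4 points when old (SD, n = 6 each, exact sign-flip P = 0.0625). Its adjusted limma P for age was also 0.773.

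Single positions were also tested with the paired test of the methods and an unadjusted P below 0.05, to which a minimum mean difference of 10 points between young and old ratios was added here. Of the 1738 positions of the 869 CpGs, 11 (0.633%) were differentially methylated, against 1.68% of all 838705 positions. Of these, 6 were more methylated in young and 5 in old cultures. The higher strand was affected in 7 and the lower strand in 4, and no CpG had both strands called (0 CpGs). Without the minimum difference, 74 of the 1738 (4.26%) had an unadjusted P below 0.05, against 2.87% of all, so that the order of the shares turned. With the minimum, the count was 25 (1.44%, against 1.58% of all) without animal 1, 18 (1.04%, against 1.55%) without animal 3 and 21 (1.21%, against 1.61%) without animal 5.

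The change had the same direction in all 6 animals at 4 of these positions. They were picked by these same values, and agreement of 6 animals fixes the exact sign-flip P at its smallest value. The P-values printed here are thus no further support. The plus strand at 37591118 on chromosome 27 was at 71.8 ± 8.80% when young and 47.3 ± 10.4% when old (SD, n = 6 each, exact sign-flip P = 0.0312). The minus strand at 49013091 on chromosome 13 was at 65.2 ± 12.1% and 50.3 ± 11.3% (SD, n = 6 each, exact sign-flip P = 0.0312). The plus strand at 24899500 on chromosome 8 was at 84.7 ± 10.8% and 71.7 ± 12% (SD, n = 6 each, exact sign-flip P = 0.0312). The remaining one was the plus strand of the chromosome 15 CpG above. Their mean coverage was 13.8 to 25.8 reads.

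Variant-like CpGs were defined as those where the strand difference of young and old culture agreed within 20 points in all 6 animals, while the animal means spanned at least 30 points. There were 26 of them among the 869 (2.99%), against 0.516% of all CpGs examined and 1.43% of intermediate CpGs. The higher strand was out of line at 16 and the lower strand at 10. The animals differed more on the lower than on the higher strand at 19 of the 26. Of the 26, 11 had fewer than 10 reads in some culture, and 7 had a mean of at least 100 reads on both strands. No sequence of the animals was at hand, so whether a base difference underlies any of them was not tested.

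An animal difference of the strand difference was tested in the same limma fit with a moderated F-test. After adjustment over all CpGs, 2 of the 869 (0.230%) were called, against 0.241% of all CpGs, so that the shares were alike with all 6 animals. Without animal 2 the count was 9 (1.04%), against 0.213% of all CpGs. It was 1 (0.115%) without animal 1, 3, 4 or 6, against 0.159% to 0.210% of all CpGs. With an unadjusted P below 0.05, 106 (12.2%) were called, against 4.12% of all and 7.46% of intermediate CpGs. Fitted on intermediate CpGs only, 54 (6.21%) had an unadjusted P below 0.05, against 6.00% of those CpGs, so that the shares were then alike. On simulated data the adjusted animal test called more unchanged CpGs than its limit allows. The adjusted animal P-values below are to be read with that limit. The adjusted calls are given with the values of every animal.

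The smallest animal P was at 46591454 on chromosome 29. In animals 1, 2, 3, 5 and 6 the minus strand was at 6% to 20% at either age, on 88 to 286 reads. In animal 4 it was at 86% in the young and 81% in the old culture, on 21 and 16 reads. The plus strand was at 72% to 98% in all 12 cultures, with 88% in both cultures of animal 4, and the 19 positions within 50 bp averaged 84.7%. Animal 4 was thus alike on both strands, in both cultures, while the others were not. The adjusted P of the animals was 0.00773 in the limma fit across all CpGs. Its minus strand coverage was also the lowest in both cultures.

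The second CpG called was 58239776 on chromosome 18, with an adjusted P of 0.0322 for the animals in the limma fit across all CpGs. Its minus strand was at 95% to 100% in all cultures. Its plus strand was at 40% in the young and 38% in the old culture of animal 5, at 18% in both cultures of animal 4, at 19% and 11% in animal 2 and at 4% to 11% in the others. At its paired CpG at 58238867 the same animals were highest, now on the minus strand, with 39% and 41% in animal 5 and 22% and 23% in animal 4.

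**Figure D4:**
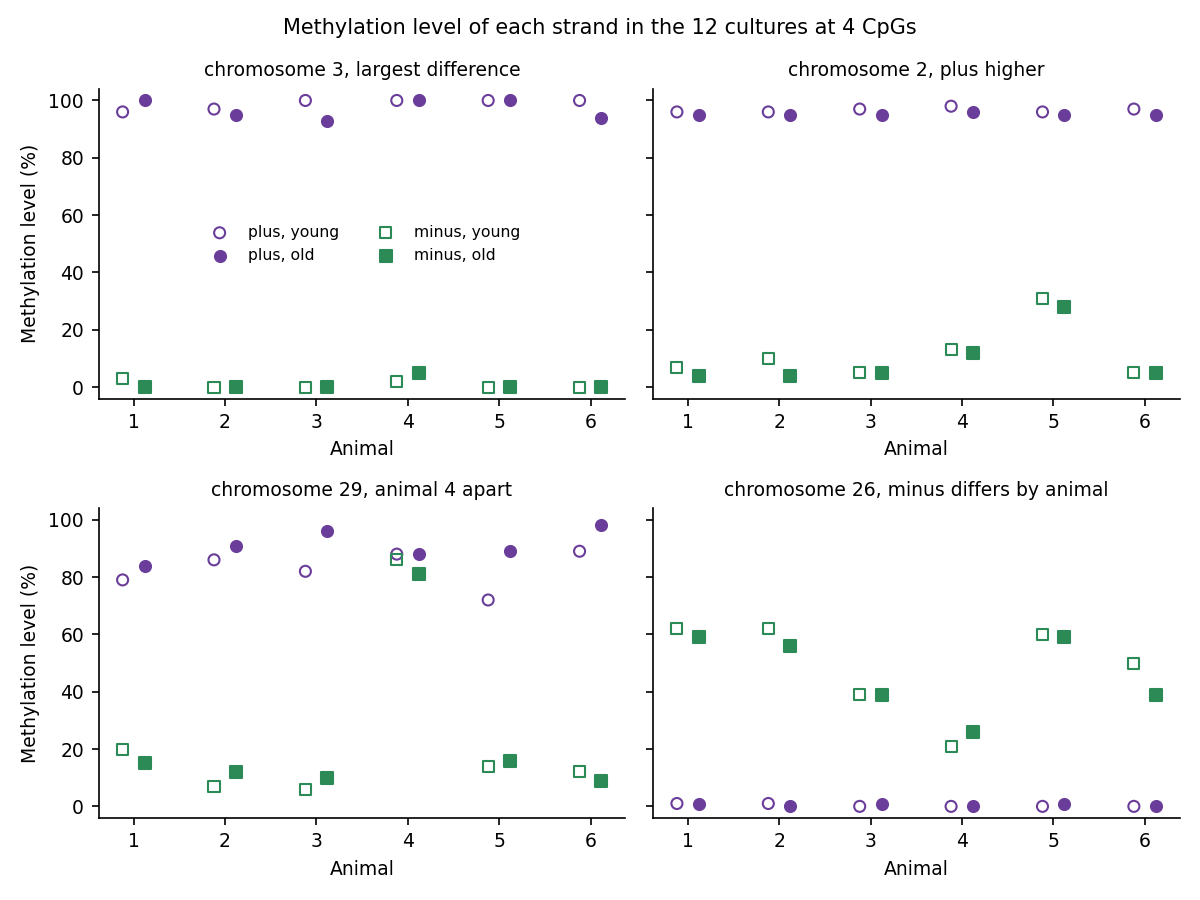
Methylation level (y axis, %) of the plus strand (circles) and the minus strand (squares) by animal (x axis), with open symbols for young and filled symbols for old cultures, at 4 CpGs. On chromosome 3 the strands are apart in all animals, on chromosome 2 the minus strand is highest in animal 5, on chromosome 29 both strands are alike in animal 4, and on chromosome 26 the minus strand differs among animals.

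Animal 5 was also highest on the lower strand at other CpGs. Both cultures of animal 5 had the highest levels of the lower strand at 34 of the 869 CpGs (3.91%), against 1.17% of the other intermediate CpGs. The counts were 18, 13, 6, 21 and 6 for animals 1, 2, 3, 4 and 6. For animal 1 the share among the other intermediate CpGs was higher, at 6.51%, than among the 869, at 2.07%. The share among the 869 was the higher one for animal 4 too, at 2.42% against 1.13%. It was also slightly higher for animal 3, at 0.690% against 0.549%. For animal 6 it was lower, at 0.690% against 0.801%. The 13 CpGs of animal 2 were likewise a smaller share than its 1.74% among the other intermediate CpGs. Of the 34 CpGs, 30 had the higher strand out of line, and 27 lay in places on chromosomes 2, 6, 18 and 25.

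At these 27 CpGs the lower strand of animal 5 had a median of 33.0% (9.50% to 62.5%), the mean of its young and old culture. The median was 13.5% in animal 4, 11% in animal 2, 6.50% in animals 1 and 3 and 6.00% in animal 6. Animal 4 exceeded animals 1, 2, 3 and 6 at 24 of the 27. The neighbouring positions had a low level, with means of 4.46% to 17.1%, and the higher strand averaged 63.5% to 98.7%. The CpGs were grouped after their values had been seen, several are pairs of like coverage, both counted, and no test is given.

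**Figure D5:**
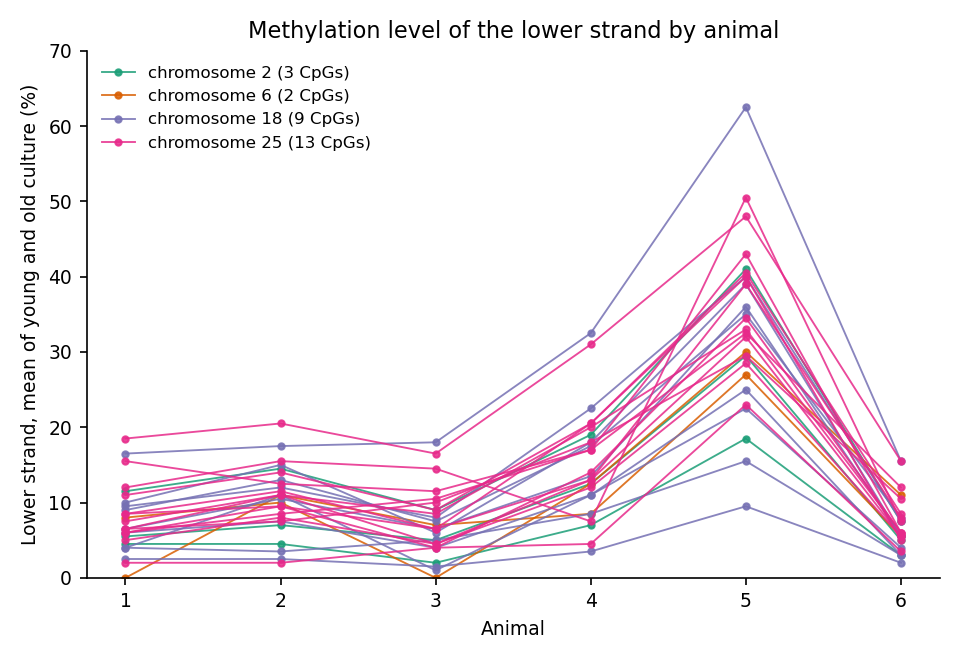
Methylation level of the lower strand (y axis, %, mean of the young and old culture) by animal (x axis) at the 27 CpGs on chromosomes 2, 6, 18 and 25 where both cultures of animal 5 were highest. Each line is 1 CpG, and animal 5 has a median of 33.0% against 6.00% to 13.5% in the other animals.

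Examples on chromosomes 2 and 25 had deep coverage. At 66268445 on chromosome 2, the minus strand was at 31% and 28% in animal 5 and at 13% and 12% in animal 4, against 4% to 10% in the others. The plus strand was at 95% to 98% in all 12 cultures. At 32462924 on chromosome 25, the plus strand was at 34% and 35% in animal 5, at 14% and 14% in animal 4 and at 4% to 14% in the others, on 416 to 1172 reads. Their adjusted animal P was 0.0585 and 0.0887 by limma, so that neither passed.

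At 40481407 on chromosome 26 the plus strand was at 0% to 1% in all cultures, on 962 to 2362 reads. Its minus strand was at 62% and 59% in animal 1, 62% and 56% in animal 2, 39% and 39% in animal 3, 21% and 26% in animal 4, 60% and 59% in animal 5 and 50% and 39% in animal 6. The 11 positions nearby averaged 74.2%. The levels were close within most animals and differed among them, but the adjusted animal P of 0.128 by limma missed the limit.

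Other variant-like CpGs had 1 animal apart. At 24881186 on chromosome 8, the minus strand was at 55% and 44% in animal 3 and at 11% to 33% in the others, while the plus strand was at 82% to 93%. At 26569892 on chromosome 15, the minus strand was at 36% and 31% in animal 3 and at 53% to 68% in the others. It had only 14 and 13 reads in animal 3, and 5 in the old culture of animal 2. The adjusted animal P by limma was 0.559 at the chromosome 8 CpG and 0.323 at this one, so that neither passed. At 27312944 on chromosome 6, the plus strand was at 60% and 62% in animal 1 and at 43% to 49% in the others, on 597 to 1832 reads. The last was named by its small animal P, which was 0.112 after adjustment by limma, and did not reach the span of 30 points.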

How the data were processed

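Methylation was measured by RRBS in 12 fibroblast cultures, 6 young and 6 old, paired by heifer. According to the study's methods, the authors cut DNA with MspI and TaqI, treated it with bisulfite, sequenced 50 bp paired ends, trimmed reads with Trim Galore 0.3.7 and aligned them to bosTau8 with Bismark 0.13.1 in its non-directional mode. The submitters' processing notes name these tools. The deposited methylation ratio is a fraction from 0 to 1, rounded to 2 decimals, of the reads at a position that kept C. The deposited coverage is a count of those reads, at least 5 in every culture, in which overlapping mates of 1 pair count as 2 reads. Reads are not independent molecules. The authors' list of positions with an age difference was used for its annotation only. The P-value, age difference and class that the authors deposited beside the ratios served in no test. The age difference served to assign columns to ages: it is the ratio of columns lettered A minus that of columns lettered B, and the authors list positive values as more methylated at 5 months.

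The strand difference (plus minus minus ratio) of each culture was fitted over 187335 CpGs with limma 3.58.1 in R 4.3.3, with age and animal as terms, and P-values were adjusted by the Benjamini-Hochberg method. The animals were tested with the moderated F-test of the same fit. Ratios at single positions were compared between ages by the methods' paired test, with a minimum difference of 0.10 that the methods do not state. Exact two-sided sign-flip permutation tests over 6 animals were run in Python 3.11.15 with scipy 1.17.1, with a smallest possible P of 0.0312. Named CpGs were the 8 with the largest difference in each direction, not under 10 reads in any culture and at most 1 per kb, the 5 with the smallest animal P, the 4 with the smallest age P and the 3 on each side of the limit. Further CpGs, variant-like cases among them, were named after their values had been seen, as parts of pairs and clusters or as differentially methylated positions. The members and lists were chosen with earlier results of these data known. The pairing comes from the animals. Deviations of the strand difference in the young and old culture of an animal correlated with a median of 0.185 over the 869 CpGs and 0.00662 over all.

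Each test was tried on simulated data. The adjusted test of animals called more unchanged CpGs there than its limit allows. Fitted on intermediate CpGs only, it found none of the changes put in. Alternatives were other limits of difference and coverage, pooled reads, chromosome X, single age groups, transformed or weighted ratios, no block, exact tests and leaving out each animal. Nothing in the labels gives more than 1 culture per animal and age, so that an animal difference includes that of its cultures. Mean coverage over all positions was 22.7 to 37.7 reads, and a ratio on few reads moves in large steps. No sequence was read, because no genome of the build was used here.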

Additional observations from a re-analysis of the deposited data

Results flagged for a closer look

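Of 52 groups of 6 cultures tested for a culture far from the others, 12 (23.1%) had one, where chance gives about 1 in 20 groups. The values are strand differences, higher minus lower strand, in points, and the CpGs had been named in part for a small animal P. That choice favours CpGs with 1 animal apart, and its young and old cultures are counted separately. The share can therefore not be judged against the chance rate. Animal 5 stood apart at 4 CpGs. At 66268445 on chromosome 2 its young culture had 65 points, against 85 to 92 in the others, and its old culture 67, against 84 to 91. At 66271766 on chromosome 2 it had 78 points when young, against 89 to 95, and 78 when old, against 90 to 95. At 32462924 on chromosome 25 it had 63 and 62 points, against 83 to 93 at either age. At 58238715 on chromosome 18 its young culture had 86 points, against 93 to 95.

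Animal 4 had 2.0 points when young and 7.0 when old at 46591454 on chromosome 29, against 58 to 79 and 69 to 89 in the others. Animal 1 had 35 and 33 points at 27312944 on chromosome 6, against 47 to 51 and 46 to 52. The old culture of animal 3 had 46 points at 39277754 on chromosome 28, against 34 to 38.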

How the results depend on the processing

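The number of CpGs with unequal strands followed the limits. It was 1338 (659 with the plus strand higher) at 0.30, 562 (262) at 0.50, 563 with a mean coverage of at least 20 and 559 when every culture had to hold at least 10 reads. Both coverage limits also lowered the number of CpGs examined. With at least 10 reads in every culture it was 64434, against 187335, so that the share did not fall there. Leaving out 1 animal gave 856 to 890 CpGs, 419 to 440 of them with the plus strand higher. Pooled reads, either age alone, chromosome X and leaving out even coverage kept both counts within 1.5 times.

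Unadjusted age calls of the strand difference numbered 17 when only CpGs with a mean ratio of 0.2 to 0.8 were fitted (background 5.16%), 16 by the exact sign-flip test (background 0.918%) and 39 to 56 without 1 animal, the most without animal 5 (background 2.63% to 2.68%). The fit with no block for the pairing by animal gave 37, as with the block (background 2.60%), and 14 differentially methylated positions (background 1.91%). Adjusted age calls among the 869 were 0 in each limma fit and by the plain paired test. The exact test cannot reach an adjusted call over so many CpGs and its 0 is void. Adjusted animal calls were 0 among CpGs of 0.2 to 0.8, a void count, and 1 to 9 without 1 animal, with 9 without animal 2 and 1 without animal 1, 3, 4 or 6 (background 0.159% to 0.213%). Differentially methylated positions were 7 when every culture had to hold at least 10 reads (background 1.06%), 74 with no minimum difference (background 2.87%), 6 by the exact sign-flip test (background 0.776%) and 10 to 25 without 1 animal, with 25 without animal 1, 18 without animal 3 and 21 without animal 5 (background 1.53% to 1.73%).

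In alternatives added after seeing the data, the lower strand was out of line at 66.2% when each culture had to hold at least 10 reads, and 25% were at the 3′ edge with neighbours within 100 bp. Variant-like CpGs were 12 with changes within animals below 0.15 and 5 with a span of at least 0.40. They were 15 of 559 when each culture had to hold at least 10 reads. Shares over all CpGs examined were not computed at these settings, so that the comparison with the background was not repeated there. The cause of these shifts was not tested, beyond the fewer CpGs or animals that enter. The 234 alternatives for the strand difference of named CpGs kept the direction and moved by less than the SD over the 12 cultures. The direction was in part set by the choice of a large mean. At 46591454 on chromosome 29 that margin was wide, with an SD of 29.2 points in young and 30.4 points in old cultures.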
